A study of Mus musculus with 6 samples.

Results

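Amino acid transport and amino acid synthesis were described through 41 genes, 25 for carriers of amino acids across membranes and 16 for enzymes that make or interconvert amino acids. A probe set was taken for a gene only where the array's annotation gives it that gene and no other, and where a gene had several, the brightest by mean log2 value over the 6 arrays was kept. By this rule 40 of the 41 genes were measured, among 18193 genes in all, and Pycr1, a gene of proline synthesis, was not analysed here. The arrays hold RNA of 393P, a mass population of tumour cells grown from primary lung tumours of p53R172H∆g/+ K-rasLA1/+ mice, so both groups carry these p53 and K-ras alleles. In the 3 MKK4 shRNA cultures (393P-shZ) a vector expressed a short hairpin RNA against MKK4, the kinase gene Map2k4 that activates JNK and p38. The 3 control cultures (393P-scr) carried a scrambled control vector. The labels give retroviral infection in one place and Lipofectamine transfection in another for the delivery of the vectors, and call the arrays triplicate cultures of a single population per group, so p-values measure the spread between these cultures.

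Cells take up amino acids through solute carriers, many of which exchange one amino acid for another, and the SLC7 light subunits reach the membrane only when paired with a heavy subunit of the SLC3 family. Glutamate and glutamine supply the nitrogen for most non-essential amino acids through transaminases, and cysteine comes either from imported cystine or from methionine by transsulfuration. When amino acids run short or the endoplasmic reticulum is stressed, phosphorylation of the initiation factor eIF2 raises translation of the transcription factor ATF4, which binds C/EBP-ATF composite elements in genes such as Asns and Slc7a11.

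Promoter sequences are shown for members that hold the core letters of a composite element, TGATGNAA, and whose transcripts passed the test below. Slc7a11, the textbook ATF4 target that did not pass, is shown as well. Binding and activity of ATF4 were not measured. RefSeq start sites of GRCm38.p6, with 250 bases before and 50 after the start, were at hand for 30 of the 40 members. Letters matching TGATGNAA on either strand are in capitals, and every sequence runs 5′ to 3′ along the gene.
Asns (chr6:7693160-7693459, minus strand): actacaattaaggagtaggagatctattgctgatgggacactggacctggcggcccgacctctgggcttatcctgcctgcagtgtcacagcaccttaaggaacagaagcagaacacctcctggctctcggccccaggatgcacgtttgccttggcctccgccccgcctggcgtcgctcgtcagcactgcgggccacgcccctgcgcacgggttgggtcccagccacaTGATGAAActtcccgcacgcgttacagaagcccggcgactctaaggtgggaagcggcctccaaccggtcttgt
Got1 (chr19:43524556-43524855, minus strand): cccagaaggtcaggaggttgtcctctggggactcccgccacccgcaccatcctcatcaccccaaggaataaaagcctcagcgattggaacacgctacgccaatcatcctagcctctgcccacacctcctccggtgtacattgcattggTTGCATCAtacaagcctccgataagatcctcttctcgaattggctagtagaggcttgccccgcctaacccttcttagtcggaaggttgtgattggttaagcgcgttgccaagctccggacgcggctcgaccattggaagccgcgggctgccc
Slc1a4 (chr11:20332664-20332963, minus strand): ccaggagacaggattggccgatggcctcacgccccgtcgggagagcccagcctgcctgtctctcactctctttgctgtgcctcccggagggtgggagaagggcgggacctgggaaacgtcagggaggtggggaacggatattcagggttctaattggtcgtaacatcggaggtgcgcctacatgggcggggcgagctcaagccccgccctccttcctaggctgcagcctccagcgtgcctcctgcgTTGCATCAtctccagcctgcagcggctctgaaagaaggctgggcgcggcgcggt
Slc7a11 (chr3:50443564-50443863, minus strand): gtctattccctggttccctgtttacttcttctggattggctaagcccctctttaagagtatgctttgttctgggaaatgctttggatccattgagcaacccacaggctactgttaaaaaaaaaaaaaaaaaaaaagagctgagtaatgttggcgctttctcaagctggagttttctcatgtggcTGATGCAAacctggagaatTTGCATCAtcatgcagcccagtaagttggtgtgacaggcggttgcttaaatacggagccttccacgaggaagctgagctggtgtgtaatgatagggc
The match in Asns, the asparagine synthetase gene, begins 23 bases before the start and lies on the gene's own strand, as TGATGAAA. Those in Got1 and Slc1a4 lie on the opposite strand and begin 102 and 4 bases before the start. Slc7a11 holds a match on each strand, beginning 66 and 47 bases before the start. Such letters occur in 3.97% of the 32851 promoters in the table, belonging to 4.51% of its genes, and in 5 of the 30 members, the fifth being Slc7a7. No match was found in these windows for Slc38a2, Slc3a2, Slc6a9 or Glud1, and Cth, Slc7a5 and Slc6a6 had no entry. A match describes the letters only and is not a measured site.

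Median intensity was 92 to 95.76 units per array, and arrays correlated at r = 0.991 to 0.996 across genes. Map2k4 gave 240.1, 295 and 287 units in the MKK4 shRNA cultures and 700.3, 638 and 597 units in the controls, a log2 change of -1.21 (limma adjusted p = 0.000127). The exact permutation p, two-sided, was 0.1, which is the lowest value possible with 3 arrays against 3. As a guide to background, the brightest bacterial trpnX control probe set of each array read between 26.4 and 39.5 units. Of the epithelial markers, all 8 exceeded the trpnX controls on every array, with Epcam, Cdh1 and Cldn7 lower and Krt19 higher with MKK4 shRNA. Of the 5 markers of lung epithelium, Nkx2-1, Scgb1a1 and Napsa were not above the trpnX controls on any array. None of 6 fibroblast, 5 leukocyte and 5 endothelial markers passed the test (lowest limma adjusted p = 0.0864, unadjusted p under 0.05 in 1 of them). Of these, 5 fibroblast, 1 leukocyte and 3 endothelial markers exceeded the trpnX controls on every array.

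Transcripts of amino acid transport and synthesis genes changed upward in the MKK4 shRNA cultures wherever they passed the test. Among the 40 members measured, 10 rose and 0 fell, while 30 were not called by limma with Benjamini-Hochberg adjustment over all genes at 0.05. Over all 18193 genes, 6.37% were called higher and 5.39% lower, 11.8% in either direction. At an unadjusted limma p under 0.05 there were 18 of the 40 members, beside 4384 of the 18193 genes. Above the median level of all genes there were 16 of 27 members, beside 3489 of 9096 genes. The 10 that rose were 6 carriers (Slc1a4, Slc3a2, Slc6a6, Slc6a9, Slc7a5 and Slc38a2) and 4 enzymes (Asns, Got1, Glud1 and Cth). The median log2 change of the 40 was 0.05, against -0.01 for all genes, and 24 were positive and 16 negative. All 10 calls fell among the 27 members above the median level of all genes, where 10.9% of the 9096 genes were called higher and 9.91% lower. With every probe set tested on its own, 15 probe sets of 11 members were called higher and 2, of Odc1 and Slc7a6, lower, beside 3.57% higher and 2.79% lower of all 45037 probe sets. Most rises were small: only Cth exceeded a 1.5-fold change on the log2(intensity + 16) scale used for all changes here, a scale that understates changes of dim genes.

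**Figure D1:**
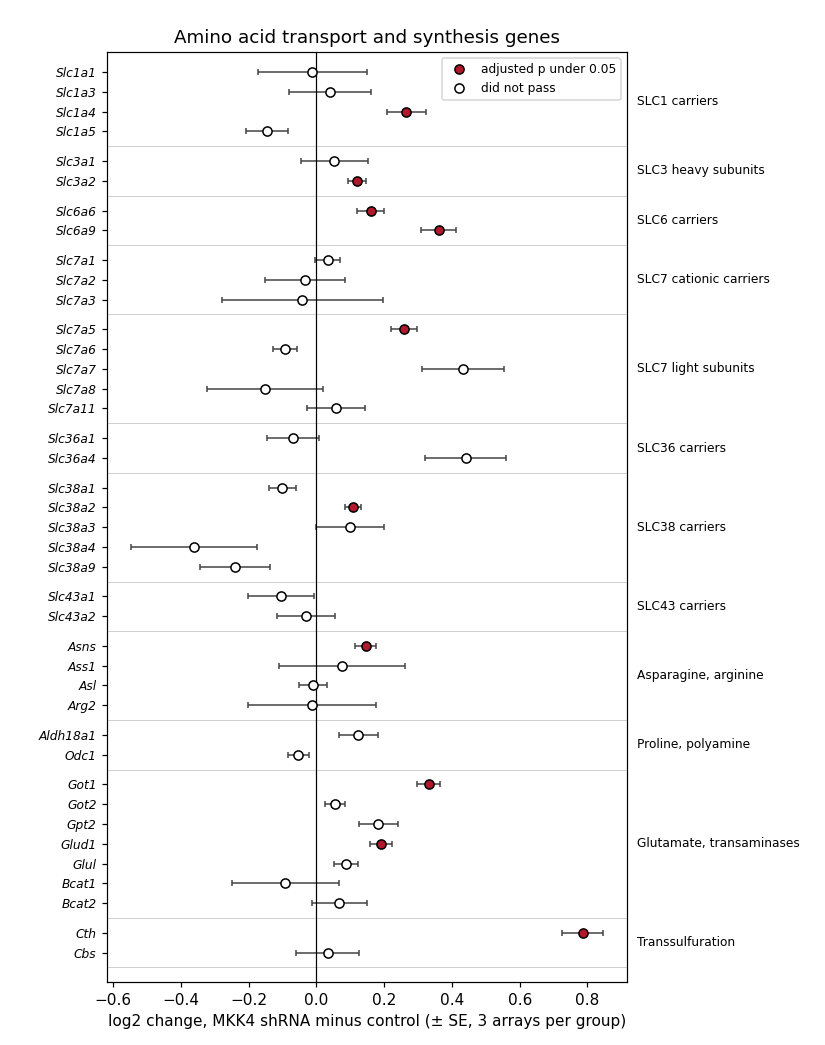
Log2 change of each of the 40 measured members, MKK4 shRNA minus control, ± SE from limma with 3 arrays per group, ordered by role. Filled points passed the adjusted test; all 10 lie to the right of 0, with Cth (0.79) farthest out.

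Transsulfuration held the largest change of the list. Cth, which encodes cystathionine gamma-lyase, the enzyme that releases cysteine from cystathionine, gave 2529.8, 2601 and 2826 units in the MKK4 shRNA cultures and 1665, 1525 and 1371 units in the controls. Every MKK4 shRNA culture lay above every control. The fold was 1.72, or 0.79 ± 0.0607 (SE) on the log2 scale, with a limma adjusted p of 0.00027, and the gene has a single probe set. Cbs, which encodes cystathionine beta-synthase, the enzyme one step before it, averaged 173 ± 19.1 units with MKK4 shRNA and 167 ± 4.68 units with the control vector (SD, n = 3 each), and its groups overlapped.

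Among the glutamate enzymes and transaminases, Got1 and Glud1 rose and 5 of 7 members did not pass. Got1, the cytosolic aspartate aminotransferase gene, gave 2173, 2199 and 2196 units with MKK4 shRNA and 1802, 1677 and 1702 units in the controls. The MKK4 shRNA cultures lay close together and clear of all controls, and the log2 change was 0.33 with a limma adjusted p of 0.000874. Glud1, which encodes glutamate dehydrogenase, the mitochondrial enzyme between glutamate and 2-oxoglutarate, gave 2129, 2288 and 2163 units with MKK4 shRNA and 1980.5, 1858 and 1871 units in the controls. Its groups did not overlap either, at a log2 change of 0.19 and a limma adjusted p of 0.00707, while its other probe set gave 0.11 and did not pass (0.11). Got2, the mitochondrial partner of Got1, averaged 3595 ± 121 units with MKK4 shRNA and 3427 ± 51.9 units in the controls (SD, n = 3 each), with overlapping groups. Gpt2, a mitochondrial alanine aminotransferase gene, and Glul, the glutamine synthetase gene, had groups that did not overlap without passing the test, at log2 changes of 0.18 and 0.09 and limma adjusted p of 0.0881 and 0.181. The branched-chain aminotransferase genes did not pass: Bcat2 averaged 248 units with MKK4 shRNA and 233 units in the controls, and Bcat1 exceeded the trpnX controls on 1 MKK4 shRNA and 2 control arrays.

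Asns was the one enzyme gene of the asparagine and arginine group to rise. It gave 6995, 7047 and 7296 units with MKK4 shRNA and 6496, 6395 and 6051 units in the controls. The groups did not overlap, and limma gave a log2 change of 0.15 ± 0.0298 (SE), adjusted p = 0.0177. Its other probe set, with 6556, 6611 and 7034 units in the MKK4 shRNA cultures against 6208, 5940.4 and 5819 units in the controls, gave 0.14. Asl, which encodes argininosuccinate lyase, averaged 1259 ± 83.5 units with MKK4 shRNA and 1254 ± 25.8 units in the controls (SD, n = 3 each). Ass1, the gene of the enzyme before it, was not above the trpnX controls on any array, and Arg2, the mitochondrial arginase gene, exceeded them on 2 arrays of each group.

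Neither measured gene of the proline and polyamine group was called. Aldh18a1, the gene of the enzyme that starts proline synthesis from glutamate, gave 5415, 4887 and 4776 units with MKK4 shRNA and 4758, 4260.2 and 4509 units in the controls. The lowest MKK4 shRNA culture lay just above the highest control, and limma gave 0.12 with an adjusted p of 0.246. All 5 of its probe sets were positive, from 0.12 to 0.28, and tested on their own 2 of them passed. Odc1, which encodes ornithine decarboxylase, the entry to polyamine synthesis, gave 8714, 8734 and 8645 units with MKK4 shRNA and 9295, 8494 and 8943 units in the controls. The controls span the MKK4 shRNA values, at a log2 change of -0.05 (limma adjusted p = 0.348), while a dimmer Odc1 probe set gave -0.16 and was called lower when every probe set was tested (0.0408).

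**Figure D2:**
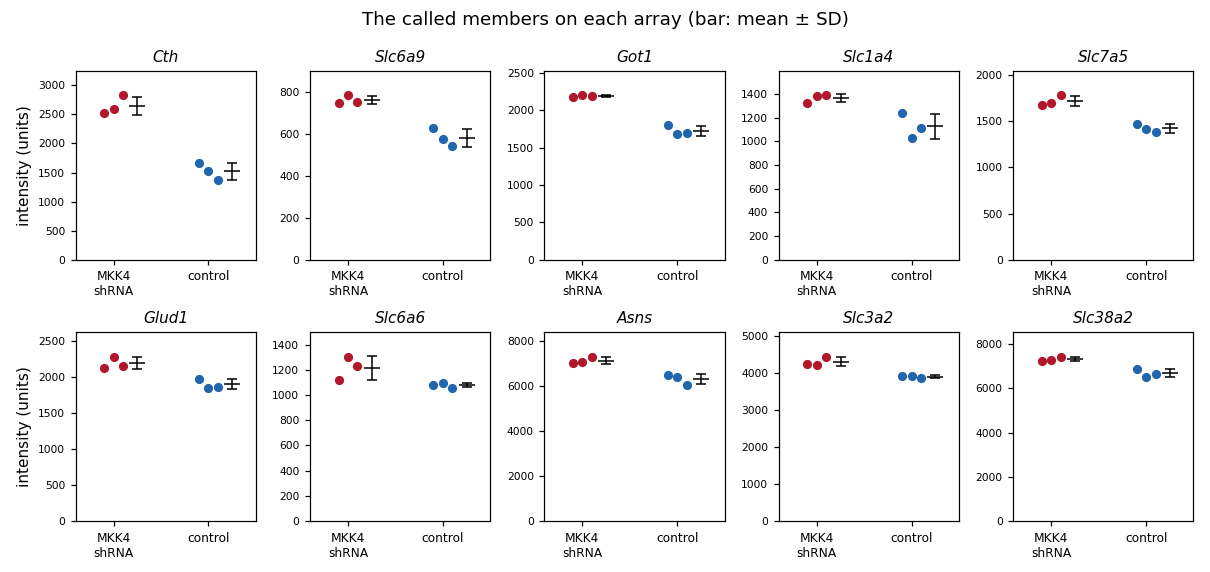
Intensity on each of the 6 arrays for the 10 members that rose, MKK4 shRNA at the left and control at the right of each panel, from 0 upward, with mean ± SD (n = 3) beside the points. No panel has a control point above an MKK4 shRNA point; the fitted fold, on the log2(intensity + 16) scale, is largest for Cth (1.72) and smallest for Slc38a2 (1.08).

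The heterodimer of Slc7a5 and Slc3a2 carries large neutral amino acids such as leucine into the cell in exchange for glutamine, and both of its genes rose. Slc7a5, the light subunit, gave 1677, 1697 and 1779 units with MKK4 shRNA and 1474, 1412 and 1384 units in the controls. The lowest MKK4 shRNA culture lay well above the highest control, with a log2 change of 0.26 and a limma adjusted p of 0.00402. Slc3a2, the heavy subunit also known as 4F2hc or CD98, gave 4240.4, 4222 and 4439 units with MKK4 shRNA and 3918, 3919 and 3852 units in the controls. Its groups did not overlap, but the change was only 0.12 (limma adjusted p = 0.0274). Slc3a1, the heavy subunit of the cystine and dibasic amino acid carrier of kidney and gut, averaged 110.1 ± 9.92 units with MKK4 shRNA and 105 ± 7.47 units in the controls (SD, n = 3 each).

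The other light subunits did not pass. Slc7a11, which imports cystine in exchange for glutamate and is a named ATF4 target, gave 163, 156 and 145 units with MKK4 shRNA and 158, 141 and 141 units in the controls on the probe set kept by the rule. These groups overlap, and limma gave 0.06 with an adjusted p of 0.759. On its other probe set Slc7a11 gave 159, 171 and 169 units with MKK4 shRNA and 128, 104 and 111 units in the controls. Those groups do not overlap, and when every probe set was tested on its own that one passed, at 0.47 (limma adjusted p = 0.0243). Both probe sets were positive, and their average gave 0.27 without passing (limma adjusted p = 0.0642), so whether Slc7a11 was called depended on the probe set. Slc7a7, which exports cationic amino acids in exchange for neutral ones, gave 129.5, 132 and 111 units with MKK4 shRNA and 72.2, 99.8 and 91.1 units in the controls, at 0.43 (limma adjusted p = 0.059), while its other probe set gave -0.01. Slc7a6 had non-overlapping groups lower with MKK4 shRNA, at 974 ± 31.4 units and 1035 ± 24.1 units in the controls (SD, n = 3 each), a log2 change of -0.09 that did not pass (limma adjusted p = 0.148). A dimmer Slc7a6 probe set gave -0.20, also without overlap, and was called lower when every probe set was tested (limma adjusted p = 0.0463). Slc7a8 was not above the trpnX controls on any array.

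Of the cationic carriers none passed. Slc7a1, which takes up arginine and lysine, gave 3775, 3834 and 3975 units with MKK4 shRNA and 3773, 3888 and 3567 units in the controls. The ranges overlap, at a log2 change of 0.03 (limma adjusted p = 0.674). Another bright Slc7a1 probe set averaged 3326 units with MKK4 shRNA and 3020 units in the controls, without overlap. It gave 0.12 and did not pass when every probe set was tested (limma adjusted p = 0.17), and a dim one gave -0.06. Slc7a3 varied widely within groups, from 191 to 303 units with MKK4 shRNA and from 178 to 353 units in the controls, and Slc7a2 lay between 42.9 and 57.3 units with MKK4 shRNA and between 45.6 and 52.3 units in the controls.

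Both SLC6 members rose. Slc6a9, the glycine transporter GlyT1, gave 743, 782 and 752 units with MKK4 shRNA and 625, 575 and 541 units in the controls. All MKK4 shRNA cultures exceeded all controls, at a fold of 1.28, a log2 change of 0.36 and a limma adjusted p of 0.00434; a dimmer probe set gave 0.15 and did not pass. Slc6a6, the taurine transporter, gave 1118, 1304 and 1227 units with MKK4 shRNA and 1083, 1095 and 1059.6 units in the controls. The gap between the groups was small beside the spread of the MKK4 shRNA cultures, and limma gave 0.16 with an adjusted p of 0.0368.

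Among SLC1 carriers, Slc1a4, which exchanges small neutral amino acids such as serine and alanine, rose, and its paralogue Slc1a5, the main glutamine carrier of many tumour cells, did not. Slc1a4 gave 1325, 1386 and 1387 units with MKK4 shRNA and 1239, 1026 and 1115 units in the controls, without overlap, at a log2 change of 0.27 (limma adjusted p = 0.0215). Its other 2 probe sets gave 0.34 and 0.19, the second of which did not pass when every probe set was tested (0.129). Slc1a4 lies on chromosome 11, whose genes had a median change of 0.06, and with each chromosome centred on its own median it gave 0.19 and was not called (limma adjusted p = 0.064). Slc1a5 gave 558, 687 and 630.0 units with MKK4 shRNA and 673, 727 and 636 units in the controls. These ranges overlap, and the value of -0.15 did not pass (limma adjusted p = 0.203); the difference between the paralogues was not tested. The glutamate carriers Slc1a1 and Slc1a3 lay between 35.3 and 55 units with MKK4 shRNA and between 39.6 and 58.5 units in the controls.

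Slc38a2, the sodium-coupled carrier SNAT2 known to be induced by amino acid shortage, was the one SLC38 member called. It gave 7243, 7292 and 7426 units with MKK4 shRNA and 6854, 6514 and 6665 units in the controls, without overlap, at a log2 change of 0.11 (limma adjusted p = 0.0272). Of its other probe sets, 1 gave 0.23 without overlap and was called when every probe set was tested (limma adjusted p = 0.00728). The dimmest, at 121 units with MKK4 shRNA and 131 units in the controls, gave -0.12 with overlapping groups (limma adjusted p = 0.607). Genes of chromosome 15, where Slc38a2 lies, had a median change of 0.06, and once each chromosome was centred on its own median, an alternative chosen after seeing the data, Slc38a2 gave 0.03 and was not called (limma adjusted p = 0.546). Slc38a1, a glutamine carrier, averaged 754 ± 46.4 units with MKK4 shRNA and 799 ± 17.6 units in the controls (SD, n = 3 each), with overlapping groups. Its change of -0.10 did not pass (limma adjusted p = 0.156) but was called in 1 of 17 alternative settings, and its other probe set gave 0.03. Slc38a9, a lysosomal arginine sensor that signals to mTORC1, averaged 259.9 ± 34.5 units with MKK4 shRNA and 306 ± 24.2 units in the controls on its kept probe set, while its other 6 probe sets gave -0.04 to 0.35. Slc38a3 averaged 273 units with MKK4 shRNA and 252 units in the controls, and Slc38a4 was not above the trpnX controls on any array.

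Carriers of the SLC36 and SLC43 families did not pass. The proton-coupled Slc36a1 averaged 201 ± 17.3 units with MKK4 shRNA and 210.2 ± 6.96 units in the controls (SD, n = 3 each). Slc36a4 had groups that did not overlap but lay under the trpnX controls on every array, so no fold is given (limma adjusted p = 0.0514). The neutral amino acid carriers Slc43a1 and Slc43a2 averaged 202 and 228 units with MKK4 shRNA and 217 and 231 units in the controls, both with overlapping groups.

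**Figure D3:**
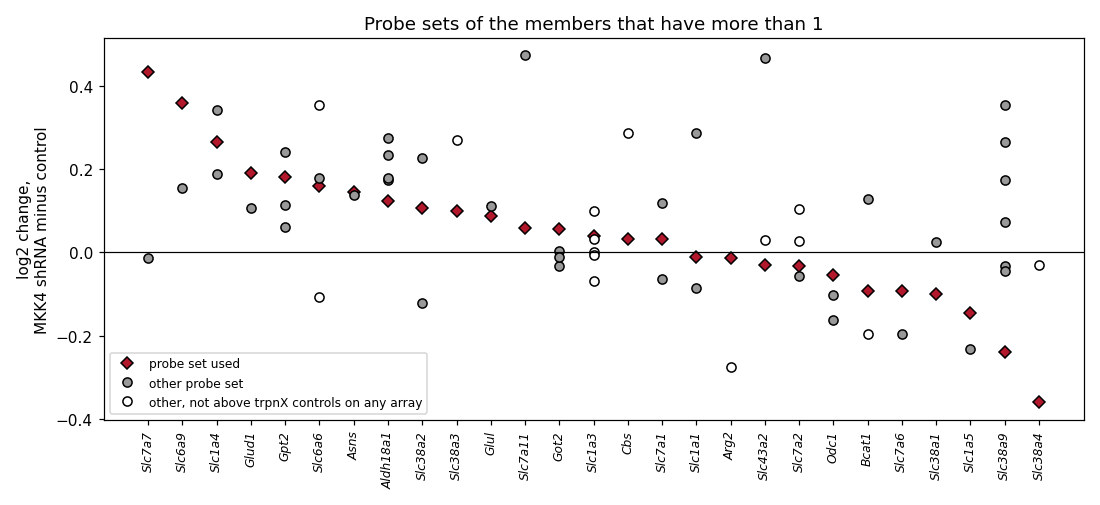
Log2 change, MKK4 shRNA minus control, of each probe set of the 27 members that have more than 1. Diamonds are the probe sets used; the probe sets of Slc1a4, Asns, Aldh18a1 and Gpt2 all lie above 0, while those of Slc38a2, Slc38a9 and Slc7a7 lie on both sides of it.

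Groups of intensities did not overlap in 16 of the 40 members, beside 26.0% of all genes. Over the 17 alternative settings, Cth, Got1, Slc6a9 and Slc7a5 were called in every setting, and Glud1 in all but the fit without a trend in the prior variance. Asns was called in 11, Slc1a4 in 10, Slc38a2 in 7 and Slc6a6 in 6 of 17, and Slc3a2 in 7 of 16; no called member changed sign. The count of 10 was 6 without shRNA replicate 1, 5 without shRNA replicate 2, 5 without shRNA replicate 3 and 6 without control replicate 3, each on 5 arrays.

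Genes of the ATF4 axis outside the list, chosen with earlier results of these data known, were called higher more often than lower. Limma called 14 of the 30 measured higher, 1 lower and 15 neither, with a median log2 change of 0.16. Over all genes 6.37% were called higher and 5.39% lower, and among genes above the median level 10.9% and 9.91%. The largest rises were in Vldlr, a lipoprotein receptor gene, with 607, 663 and 670.4 units in the MKK4 shRNA cultures and 262, 258 and 271 units in the controls, in Cebpd (1.19), in Ddit3, the gene of the stress factor CHOP (0.81), and in Ppp1r15a, which directs a phosphatase to eIF2 (0.72). Atf4 itself gave 7378, 7372 and 7424 units with MKK4 shRNA and 7086, 6555 and 6747 units in the controls on the probe set kept. These groups do not overlap, but 0.09 did not pass (limma adjusted p = 0.113), whereas a second bright Atf4 probe set gave 5812, 5838 and 6084 units with MKK4 shRNA against 4883, 4977 and 4602 units in the controls, at 0.27, and was called when every probe set was tested (0.00387). Atf4 lies on chromosome 15, and with each chromosome centred on its own median it was not called (limma adjusted p = 0.832). It was called in 4 of 17 alternative settings. The gene that fell was Eif2ak3, which encodes the eIF2 kinase PERK of the endoplasmic reticulum, at 434, 501 and 464 units with MKK4 shRNA and 584, 559 and 556 units in the controls (log2 -0.29). The average of the Eif2ak3 probe sets did not pass (limma adjusted p = 0.846), and its other probe sets exceeded the trpnX controls on 1 MKK4 shRNA array at most. Eif2ak4, the gene of the amino acid sensing eIF2 kinase GCN2, gave 198, 235 and 247 units with MKK4 shRNA and 308, 298 and 247 units in the controls and did not pass at -0.32 (limma adjusted p = 0.0972), and its other probe set gave 0.24. Among these and the other non-member genes listed here, 106 had a promoter entry and 9 held TGATGNAA on either strand, beside 4.51% of all genes with an entry. Of the 9, Chac1, Nupr1, Vldlr, Herpud1, Trib3 and Jdp2 were called higher and Atf3, Fgf21 and Lamtor4 were not called. All of these but Lamtor4 belong to the ATF4 axis list, which was drawn up around that factor. A share of matches above that of all genes is therefore built into the choice of genes, and a role of ATF4 was not tested. No match was found for 17 of the 23 genes called higher that had an entry, Ddit3 and Ppp1r15a among them. The search covered only 250 bases before and 50 after the start, so matches farther away were not looked for.

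Serine, glycine and one-carbon genes, which supply the serine that joins homocysteine in transsulfuration, gave 7 rises and no fall among 15 measured, with a median of 0.19. Of all genes 6.37% were called higher and 5.39% lower, the shares to set beside this list and the polyamine genes below. Aldh1l2, the mitochondrial 10-formyltetrahydrofolate dehydrogenase gene, gave 583, 513 and 550.2 units with MKK4 shRNA and 139, 125 and 112 units in the controls, a log2 change of 1.99 (limma adjusted p = 3.87e-05). Mthfd1l (0.30), Psph (0.28), the last step of serine synthesis, and Mthfd2 (0.27) followed by size, all without overlap between groups. Of 9 polyamine genes 3 rose and 1 fell. Sat1, the gene of the acetyltransferase that marks polyamines for export or breakdown, rose by 0.45 on the log2 scale, with 1391, 1450.0 and 1423 units in the MKK4 shRNA cultures and 1065, 1032 and 982 units in the controls, and Smox, the spermine oxidase gene, fell by 0.42 on the log2 scale. Azin1 (0.21) and Srm (0.13) also rose, but Azin1 was called in 5 of 17 alternative settings and Srm in 5 of 16.

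Of 31 other amino acid carriers 0 rose and 2 fell, Slc1a2 (-0.40) and Slc38a6 (-0.36), with a median of -0.01, where 6.37% of all genes were called higher and 5.39% lower; the difference from the members was not tested. Averaged over their probe sets, neither passed (limma adjusted p = 0.478 and 0.558). The averages take in dim probe sets: the other one of Slc38a6 was not above the trpnX controls on any array. The others of Slc1a2 exceeded these controls on 1 control array at most. Of 27 other enzymes 1 rose, Prodh, the proline dehydrogenase gene (0.44), and 3 fell, Hibadh (-0.21) and Gclm, the modifier subunit of the glutathione-synthesis enzyme (-0.14), and Arg1, which lay under the trpnX controls on every array. Gclm was called in 6 of 17 alternative settings, with a limma adjusted p of 0.225 when array medians were centred, and Arg1 in 7 of 16. Among 23 genes by which the Rag GTPases report amino acids to mTORC1, 4 rose and 1 fell: the folliculin gene Flcn gave 964, 1103 and 1122 units with MKK4 shRNA and 826, 812 and 792 units in the controls (log2 0.37), Rptor gave 0.25, Fnip1 0.23 and Rragc 0.18, and Lamtor2 gave -0.21. Flcn, Rptor and Fnip1 lie on chromosome 11, whose genes had a median of 0.06, and after chromosome centring Flcn was called at 0.30 while Rptor and Fnip1 were not (limma adjusted p = 0.108 and 0.101). Averaged over their probe sets, Rptor and Lamtor2 did not pass (limma adjusted p = 0.232 and 0.525). The other Lamtor2 probe set and the dimmest of Rptor each exceeded the trpnX controls on only 1 control array.

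**Figure D4:**
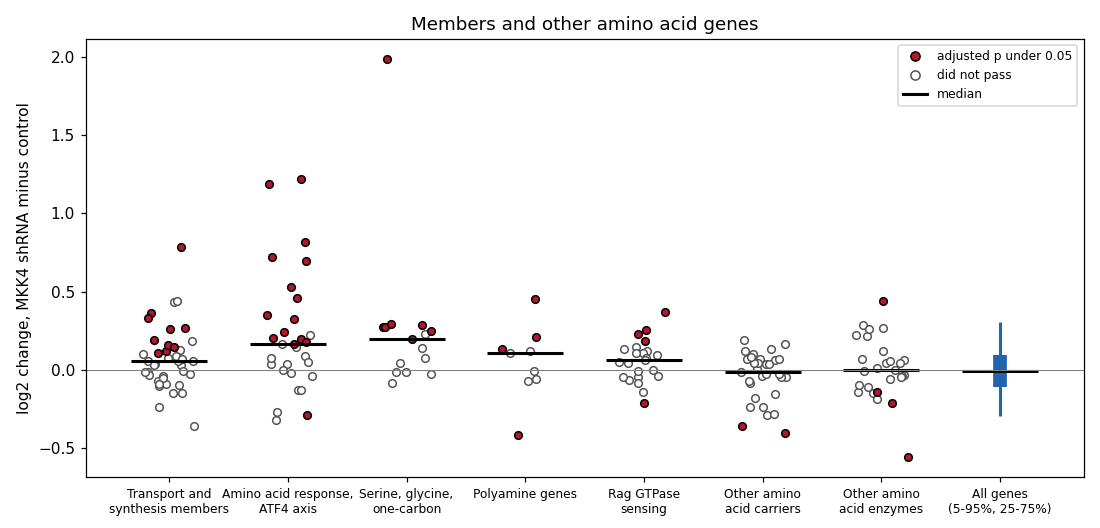
Log2 change, MKK4 shRNA minus control, of the members and of each other list of amino acid genes, with the list median as a bar and, at the right, the middle 90% and 50% of all 18193 genes. The medians of the ATF4 axis (0.16) and of the serine and one-carbon genes (0.19) lie above that of the members (0.05), and those of other carriers and enzymes lie near 0.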

How the data were processed

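Biotinylated cRNA made from total RNA of 6 cultures was read on Affymetrix arrays, 1 colour each, per the labels' protocols. The deposited values are linear intensities, 1 per probe set; the sources used here do not state the authors' summarisation, background correction or normalization. The number of arrays limits the precision.

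A pseudocount of 16 was added, log2 taken and quantile normalization applied (limma 3.58.1, R 4.3.3). Means and SDs are of deposited intensities. Control probe sets, 64 in number, stayed out. Of the others, 34945 probe sets have 1 gene symbol, 932 several and 9160 none listed. Symbols were updated through Entrez numbers (GRCm38.p6 RefSeq table). Groups were compared over 18193 genes with limma (lmFit, eBayes with trend), group as the single term, Benjamini-Hochberg at 0.05. Members, lists and tests were chosen with earlier results of these data known. Members that were called get values per array, as do 8 fixed members; of other lists the 4 largest non-overlapping calls and a few fixed genes are named, and Rragc and the called genes with a promoter match, added after their values were seen. On simulated data with normal noise, 200 of 18193 genes were changed, all drawn from genes above the median level. Of those changed by 0.5, 87% were recovered, and of those changed by 1, 99%. Smaller changes, such as those of every called member except Cth, and changes of dimmer genes were not simulated, so their recovery is not known. Alternatives were other normalizations, pseudocounts of 1 and 64, no dimmer genes, averaged or restricted probe sets, no variance trend, a replicate block, every probe set, each array left out and, chosen after seeing the data, chromosome centring.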

Additional observations from a re-analysis of the deposited data

How the results depend on the processing

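No called member changed sign under the 17 alternatives, and 4 of 10 were called under every one. Of the 30 members not called, 14 changed sign and 6 were called under some alternative. The replicate numbers did not pair the cultures: same-numbered cultures deviated with r of -0.11 to -0.01, and no culture correlated best with its own number. With the replicate as a block, calls were 1206 over the whole table, against 2139, with 6 members higher, and 22 other amino acid genes higher and 5 lower, against 29 and 8. Without a variance trend they were 1127, 4, 17 and 4. With array medians centred, 6 members were higher. Members lower, 0 as reported, were 2 with averaged probe sets, 2 over every probe set and 1 with chromosomes centred. Over every probe set, 55 probe sets of the other amino acid genes were called higher, a count of probe sets and not of genes. Other genes lower were 4 with averaged probe sets. Leaving out 1 array gave 1159 to 1662 calls in all, 5 to 8 members higher, 19 to 29 other genes higher and 4 to 6 lower, each on 5 arrays. Eif2ak4 turned to 0.24 when probe sets marked _s, _x or _a were dropped. The number of arrays and, near the trpnX controls, the signal limit these calls.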
